A study of Mus musculus with 8 samples.

Results

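The anterior pituitary hormone genes examined here were 9 genes: prolactin (Prl), growth hormone (Gh), the common glycoprotein hormone alpha subunit (Cga), the beta subunits of thyrotropin (Tshb), follitropin (Fshb) and lutropin (Lhb), pro-opiomelanocortin (Pomc), and the transcription factors Pitx1 and Pou1f1. They were selected on their measured values in these same arrays, by taking every probe whose gene name was 1 of the 9 symbols, so their levels are given as a description and none of their differences was tested. These 9 genes were read by 10 of the 55681 probes of the array, which carried 35019 gene names. Male C3H/HeN mice gave RNA from the medial prefrontal cortex (mPFC), which was hybridised, 1 animal per array, to 8 single-colour Agilent mouse arrays. The MS group held 4 mice (5.3, 7.1, 7.2 and 7.6) that went through maternal separation together with unpredictable stress of the dam between postnatal days 2 and 14. The control group held 4 mice (6.2, 8.2, 8.4 and 8.5) that did not. Both groups were weaned on postnatal day 21, were taken as adults after an operant task, and had been food deprived before the brain was collected. The sources used here give no exact age for these animals and leave unexplained the digit that precedes the point in each label. The mPFC was dissected as whole tissue, so each array averages over all cell types in the piece.

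Prolactin and growth hormone are secreted by lactotrophs and somatotrophs, cells of the anterior pituitary that depend on the POU factor Pou1f1, as do the thyrotrophs that make Tshb. Thyrotropin, follitropin and lutropin each pair their own beta subunit with the shared alpha subunit Cga, and Pomc is cut into corticotropin in corticotrophs and into melanocortins in melanotrophs and in hypothalamic neurons. Pitx1 is a homeobox factor of all anterior pituitary lineages, and these genes are known for high expression in the pituitary gland rather than in the cerebral cortex.

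The probes that carry the pattern are shown here because each gene was read by a single 60-base oligonucleotide, apart from Cga, whose pair of probes gave different results. Positions are on mm9 as the scanner files give them. No mm9 gene annotation was used here, so exons and introns are not named. The Prl probe lay at chr13:27156972-27157031 on the plus strand and the Cga probes at chr4:34854544-34854603 (first probe) and chr4:34842664-34842723 (second probe), both on the plus strand. The Gh probe covered chr11:106162492-106162735 on the minus strand, a span of 244 bases for a 60-base sequence.
Prl probe: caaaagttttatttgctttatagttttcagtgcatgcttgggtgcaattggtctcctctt
Gh probe: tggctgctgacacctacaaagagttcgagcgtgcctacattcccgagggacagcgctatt
Cga first probe: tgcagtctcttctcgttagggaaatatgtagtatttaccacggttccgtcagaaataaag
Cga second probe: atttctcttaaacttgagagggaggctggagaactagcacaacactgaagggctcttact

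The promoters of Prl and Cga are shown because both genes varied together across the arrays, and Prl is a known target of Pou1f1. Each window holds 250 bases before and 50 bases after the start of the RefSeq gene (GRCm38.p6, plus strand), and capitals mark TATNCAT or its reverse complement ATGNATA, a short form of the site that Pou1f1 binds. The Prl window lay at chr13:27057320-27057619 and the Cga window at chr4:34893529-34893828.
Prl promoter: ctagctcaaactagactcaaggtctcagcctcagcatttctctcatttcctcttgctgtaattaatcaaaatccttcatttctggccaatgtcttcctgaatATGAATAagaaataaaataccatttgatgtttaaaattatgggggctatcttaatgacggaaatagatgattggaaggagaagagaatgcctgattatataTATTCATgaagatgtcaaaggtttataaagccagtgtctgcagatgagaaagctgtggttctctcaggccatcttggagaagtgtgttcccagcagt
Cga promoter: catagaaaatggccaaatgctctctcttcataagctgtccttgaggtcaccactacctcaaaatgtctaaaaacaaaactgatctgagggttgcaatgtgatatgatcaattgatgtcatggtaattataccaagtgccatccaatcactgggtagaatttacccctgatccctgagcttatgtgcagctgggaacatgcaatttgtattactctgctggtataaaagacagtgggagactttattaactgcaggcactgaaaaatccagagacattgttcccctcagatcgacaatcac

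The Prl window held 2 matches, which began 148 and 47 bases before the start, and the Cga window held none. A match to TATNCAT on either strand was found in 8.84% of 32851 promoter windows of the same length. The sequence TATAAA, read on the gene's strand only, began 24 bases before the start in Prl and 30 bases before it in Cga, and 8.32% of all windows held it. The bicoid-type site that Pitx1 binds, TAATCC on either strand, was in 7.06% of all windows and in neither of these 2. Windows were matched for 7 of the 9 genes, all but Gh and Pitx1. Of the other 5 genes, Pou1f1 held TATNCAT or its complement in 1 of its 2 windows, and Tshb, Fshb, Lhb and Pomc held no match. These are matches of letters and not measured binding sites.

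Levels are given as the log2 of the processed spot signal minus the log2 of the same array's 75th percentile, so that 0 is the signal at that percentile. The 75th percentile signal lay between 588 and 892 units on the 8 arrays. A probe was counted as detected where the scanner software marked it as well above background, which held for 61.5% to 68.9% of probes per array, and the lowest level so marked lay between -6.41 and -5.48. Below that, values carry no order. Cortical identity was measured with 7 excitatory neuron markers, all of them detected on every array. For marker lists the levels were taken off the log2 scale, as multiples of the 75th percentile signal, and then summed. The brightest genes of a list therefore weigh most in its sum. The cortical sums were 48.7 to 54.1 in MS and 39.9 to 51.3 in control. Control 8.4 stood apart from the rest, with a median correlation of 0.987 with the other arrays against 0.993 to 0.995 for the others.

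Detection of the 9 genes varied by gene and by animal. The number of genes detected was 4, 5, 4 and 5 in MS 5.3, 7.1, 7.2 and 7.6, and 8, 5, 4 and 2 in control 6.2, 8.2, 8.4 and 8.5. Lhb and Pomc were detected on all 8 arrays, Prl and Gh on 7, Cga on 4, and Tshb, Fshb and Pitx1 on control 6.2 alone. Pou1f1 was detected on none. Of all 55681 probes, 58.7% were detected on all 8 arrays, 25.6% on none and 1.41% on control 6.2 alone.

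Prl had levels of -4.50, -1.41, -5.13 and -3.20 in MS 5.3, 7.1, 7.2 and 7.6, and of 0.83, -1.79, -4.06 and -5.98 in control 6.2, 8.2, 8.4 and 8.5. The highest and the lowest value were both in controls, and the MS values lay between them, so the groups overlapped fully. The signals behind these levels were 33.1, 222, 23.2 and 77.0 units in MS and 1323, 236, 53.4 and 10.7 units in control. The last of these, in control 8.5, was the single Prl value not well above background, although it lay close to the lowest signal so marked on that array (10.6). MS mice averaged -3.56 ± 1.64 and control mice -2.75 ± 2.94 (SD, n = 4 each, the value at background included). In whole tissue, fewer hormone-expressing cells and less RNA per cell cannot be told apart.

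Gh, whose protein drives growth through hepatic Igf1, had levels of -5.54, -1.62, -4.90 and -3.45 in the MS mice, and of 0.38, -2.13, -4.08 and -6.199 in the control mice, in the same animal order. Control 6.2 was again highest, MS 7.1 and control 8.2 followed, and control 8.5 was again the lowest and the single array on which Gh was not well above background. Gh averaged -3.87 ± 1.74 in MS and -3.00 ± 2.81 in control (SD, n = 4 each, likewise). At the edge of detection, the Gh signal was 16.2 units in MS 5.3, which counted as detected, and 9.20 units in control 8.5, which did not.

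**Figure D1:**
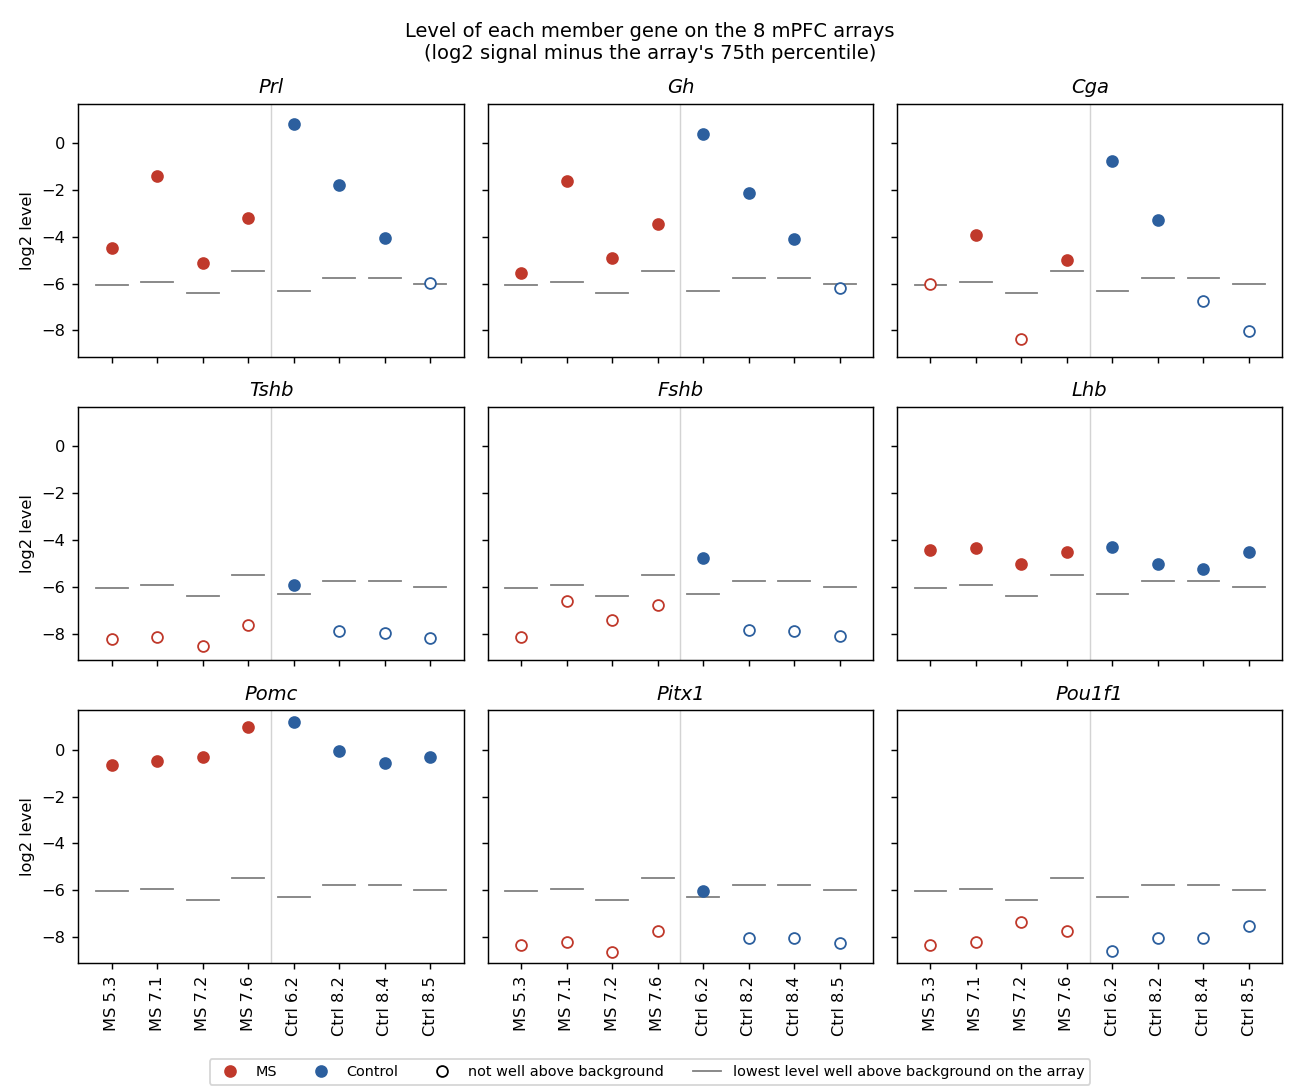
Level of each of the 9 genes (y axis, log2 signal minus the array's 75th percentile) on the 4 MS arrays (red, left) and the 4 control arrays (blue, right), with Cga shown at its first probe, open points for values not well above background and grey lines for the lowest level marked as well above background on each array. Prl reached 0.83 in control 6.2 and the 2 groups overlap in every panel.

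The glycoprotein hormone subunits fell into a widely varying alpha subunit and 3 beta subunits. At its first probe, Cga had levels of -6.02, -3.94, -8.36 and -4.98 in MS 5.3, 7.1, 7.2 and 7.6, and of -0.79, -3.29, -6.77 and -8.02 in control 6.2, 8.2, 8.4 and 8.5. It was well above background in MS 7.1 and 7.6 and in control 6.2 and 8.2, which were also the 4 arrays with the highest Prl and Gh levels. The Cga signal in MS 5.3 was 11.6 units, just outside detection on an array whose lowest detected signal was 11.4. Means of -5.83 ± 1.89 in MS and -4.72 ± 3.30 in control (SD, n = 4 each) include 2 values in each group that were not well above background. The second Cga probe, which lies elsewhere on chromosome 4, failed the background flag on every array, with values of -8.07 to -7.15 in MS and -8.04 to -5.83 in control.

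Tshb, which gives thyrotropin its specificity, was well above background in control 6.2 alone, at -5.94, with values of -8.52 to -7.63 in MS and -8.19 to -7.90 in the other controls. That level lies below the lowest detected level of several other arrays, so no fold is given. Fshb, the beta subunit of follitropin, was likewise detected in control 6.2 alone, at -4.76. Its MS values were -8.14, -6.59, -7.40 and -6.78 and those of the other controls -8.09 to -7.86, all not well above background. Under the less strict flag of the software, which asks for a signal that is positive and significant against background, Fshb counted as present in 3 MS mice and 1 control. That flag also raised Prl and Gh to 8 arrays, the first Cga probe to 6, the second Cga probe to 5 (2 MS, 3 control) and Pou1f1 to 2 (1 of each group), and left Tshb and Pitx1 on control 6.2 alone.

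Lhb, the beta subunit of lutropin, did not share this pattern. It was detected on all arrays, with levels of -4.41, -4.33, -5.04 and -4.50 in MS and -4.30, -5.01, -5.21 and -4.52 in control 6.2, 8.2, 8.4 and 8.5. Its whole range was 0.92 log2 units, and averages were -4.57 ± 0.32 in MS and -4.76 ± 0.43 in control (SD, n = 4 each).

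Pomc, the precursor of corticotropin, melanocortins and beta-endorphin, was detected on all arrays. Its levels were -0.63, -0.46, -0.32 and 0.997 in MS 5.3, 7.1, 7.2 and 7.6, and 1.19, -0.06, -0.54 and -0.32 in control 6.2, 8.2, 8.4 and 8.5. A single animal of each group stood high, MS 7.6 and control 6.2, and the other 6 lay within -0.63 to -0.06. Averages were -0.10 ± 0.75 in MS and 0.07 ± 0.78 in control (SD, n = 4 each). MS 7.6 had rank 4 for Prl and Gh, so Pomc did not follow their order.

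Of the transcription factors, Pitx1 was well above background in control 6.2 alone, at -6.01, and had values of -8.64 to -7.75 in MS and -8.27 to -8.03 in the other controls. Pou1f1 passed the background flag nowhere, with values of -8.34 to -7.36 in MS and -8.61 to -7.51 in control, and its lowest value was in control 6.2. Tshb and Pitx1 correlated at 0.996 over the 7 arrays without control 6.2, on which neither was well above background. The software replaces such dim signals by surrogate values that the probes of an array nearly share, so they hold no order.

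Each gene can be set against its own level in control 6.2, the array on which 8 of the 9 genes had their highest value. That count takes Cga at its first probe, since the second was highest in control 8.2. It also includes Lhb, whose lead over MS 7.1 was within spot noise. Of all probes detected on at least 1 array, 11.5% were highest in control 6.2, against 8.12% to 17.6% for the other arrays. Prl stood at 2.48%, 21.2%, 1.61% and 6.11% of that level in MS 5.3, 7.1, 7.2 and 7.6, and at 16.3% and 3.37% in control 8.2 and 8.4. Gh stood at 1.65%, 25.0%, 2.57% and 7.04% in the MS mice, and at 17.6% and 4.55% in those controls. In control 8.5 neither was well above background, so no share is given. Cga stood at 11.2% and 5.46% in MS 7.1 and 7.6 and at 17.6% in control 8.2, the arrays on which it was detected. In MS 7.6 and in control 8.2 the shares of the 3 genes lay close together, and in MS 7.1 that of Cga was the lowest. Pomc stood at 28.2% to 87.2% in MS and at 30.0% to 41.8% in the other controls, and Lhb at 59.9% to 97.4% in MS and 52.9% to 85.7% in the other controls.

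**Figure D2:**
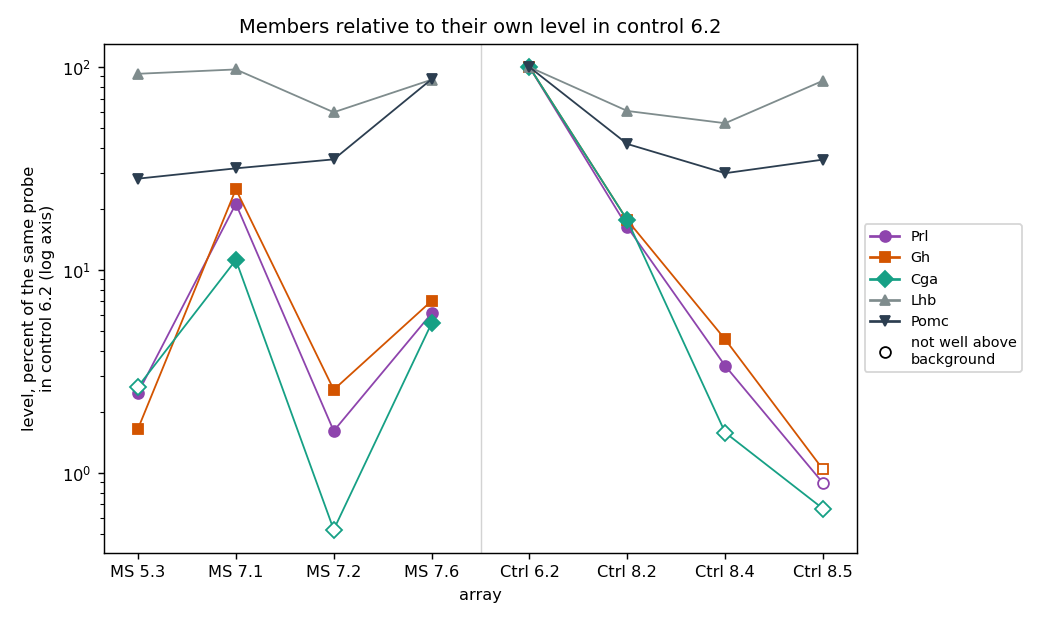
Level of Prl, Gh, Cga (first probe), Lhb and Pomc on each array as a percent of the same probe in control 6.2 (y axis, log scale), for the 4 MS arrays (left) and the 4 control arrays (right), with open symbols for values not well above background. Prl and Gh run together, with Prl at 21.2% in MS 7.1 and 16.3% in control 8.2. Cga was well above background on 4 arrays only, and Lhb stays above 50% on every array.

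Control 6.2 was higher than the next array by 4.72-fold for Prl and 4.00-fold for Gh (MS 7.1 in both), and by 5.68-fold for Cga (control 8.2). Each member was read by 1 spot per array, so precision was taken from 399 other probes spotted 10 times per array. The median SD between such spots was 0.056 log2 units for levels above -2, 0.11 between -4 and -2, and 0.24 between -6 and -4. Ordered by level over the arrays on which they were detected, the gap between neighbouring arrays was wider than 2 SDs of this spot noise in 4 of 6 steps for Prl, in 5 of 6 for Gh, in 3 of 3 for Cga, in 3 of 7 for Pomc and in 0 of 7 for Lhb. The narrower steps of Prl were control 8.4 to MS 5.3 and MS 5.3 to MS 7.2, and that of Gh was MS 7.2 to MS 5.3. For Lhb the 8 animals could not be ordered at this precision, which covers spots on 1 array and not labelling, dissection or the spread between animals, and is no test of a difference.

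The ranges of Prl, Gh and Cga over the 8 arrays were 6.81, 6.58 and 7.57 log2 units, partly set by values at background. A range of at least 6 was found in 0.321% of the 41404 probes detected on at least 1 array, whose median range was 0.62. Across the 8 arrays the log2 levels of Prl and Gh had a Pearson correlation of 0.99 (0.97 over the 7 arrays without control 6.2), those of Prl and Cga 0.97 (0.94), and those of Gh and Cga 0.93 (0.86). The correlations with Cga include 2 arrays of each group on which Cga was not well above background. All 3 pairs include control 8.5, on which neither Prl nor Gh was well above background. Prl minus Gh stayed between -0.23 in MS 7.2 and 1.03 in MS 5.3. Prl and Pomc correlated at 0.60, and at 0.21 without control 6.2, and Prl and Lhb at 0.36, and at 0.10 without it. These values are descriptions over arrays that share a slide, and the genes were chosen for this pattern.

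**Figure D3:**
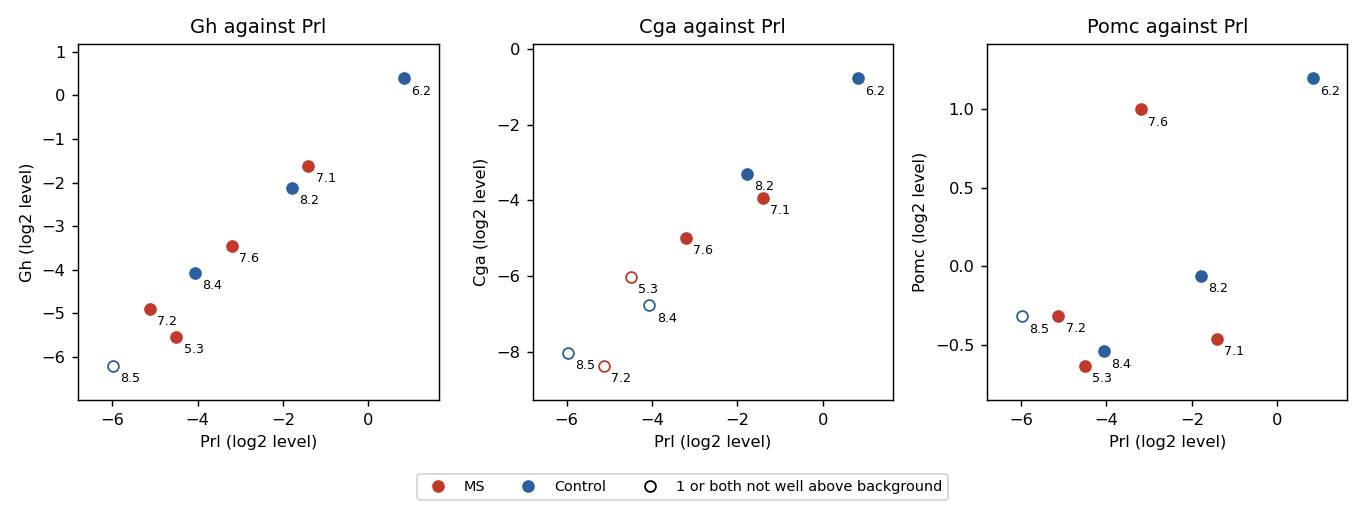
Log2 level of Gh, Cga (first probe) and Pomc (y axes) against that of Prl (x axes) on the 8 arrays, with MS in red, control in blue, the animal's label beside each point, and open points where 1 or both genes were not well above background. Gh follows Prl along a line in both groups, Cga was well above background on only 2 arrays of each group, and Pomc is high in control 6.2 and MS 7.6 only.

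Other genes with a profile like that of Prl were sought among 11508 probes detected on at least 1 array and ranging over at least 1 log2 unit. Gh and Cga were the nearest to Prl, at ranks 1 and 2, and Prl and Cga were the nearest to Gh. These genes were chosen on the same values, so their ranks are a description only. Against Prl, Fshb had rank 45, Tshb 70, Pitx1 74 and Pomc 529. The next named genes for Prl were Tspan32 (Pearson 0.89, Spearman 0.91), Adad2 (0.87, 0.83), Rdh8 (0.86, 0.74), Ripor3, called Fam65c in the files (0.86, 0.86), Ranbp3l (0.86, 0.95) and Usp44 (0.85, 0.76), all over 8 arrays. For Gh they were Ripor3 (0.91, 0.93), H60b (0.89, 0.93), Usp44 (0.88, 0.86), Ranbp3l (0.88, 0.98), Tspan32 (0.87, 0.88) and Arhgap11a (0.87, 0.83). Tspan32 had rank 11 for Prl and Ripor3 rank 5 for Gh, behind probes left unnamed here. Ranbp3l was the only one of these detected on all 8 arrays, with a range of 1.02 log2 units. Tspan32, Rdh8, Usp44 and Arhgap11a were detected on 1 array each, H60b on 2, Adad2 on 3 and Ripor3 on 4. Apart from Ranbp3l, their correlations thus rest in part on values not well above background, which hold no order. The placental prolactin-like paralogs, members of the same gene family, were mostly undetected: of 27 probes for 22 genes, 7 were detected on at least 1 array. Prl2c1, Prl3d1 and Prl3b1 were detected on all 8, with ranges of 0.52 to 0.55, and of these Prl3b1 was highest in control 6.2. Prl8a9 (range 4.09) was detected on control 8.2 alone and Prl3d2 (range 3.57) on control 6.2 alone, at -4.75.

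Markers of other tissues and cell types were read beside these genes. Of 12 hypothalamic markers, 7 or 8 were detected per array, and Nkx2-1, Otp, Sim1 and Fezf1 on none. Their sum of linear levels was 1.21 to 2.02 in MS and 1.03 to 2.25 in control. It was highest in control 8.2 and then MS 7.1, which were among the 3 arrays highest in Prl and Gh. Control 6.2 had rank 4 at 1.46. Red blood cell genes (5 of 5 detected) had sums of 275 to 445 in MS and 273 to 456 in control, with 370 in control 6.2, and meningeal fibroblast genes (6 of 6) had 3.25 to 8.88 in MS and 4.75 to 7.87 in control, with 6.88 in control 6.2. Choroid plexus genes (6 to 8 of 9, Cldn2 on none) had 0.664 to 1.33 in MS and 0.608 to 2.49 in control. Control 6.2 had the lowest sum of the 8 arrays for striatal projection neuron genes (9 or 10 of 10 detected; 29.4 to 36.1 in MS, 28.6 to 86.2 in control) and for olfactory bulb genes (6 or 7 of 7; 2.24 to 17.1 in MS, 2.08 to 42.1 in control). The olfactory bulb sum was high in MS 7.6 (17.1) and in control 8.4 and 8.5 (42.1 and 10.99), and at most 2.91 on the other 5 arrays. No marker list was highest in control 6.2. The part of any other tissue in the hormone gene levels was not tested.

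Whether maternal separation altered these genes in the mPFC is the question of the group comparison. For Prl the difference in mean level, MS minus control, was -0.81 log2 units, for Gh -0.87 and for Cga -1.11, and all 3 turned to the other side without control 6.2, at 0.38, 0.26 and 0.20. Without MS 7.1 they were -1.53, -1.62 and -1.74, and without control 8.5 they were -1.89, -1.93 and -2.21. Pomc gave -0.17, and 0.21 without control 6.2, while Lhb gave 0.19 and 0.35. Leaving out control 8.4 instead gave -1.25 for Prl, -1.23 for Gh and -1.79 for Cga. For Tshb, Fshb, Pitx1 and Pou1f1 the differences (-0.63, -0.08, -0.64 and 0.13) rest on values not well above background in all MS mice and in at least 3 controls. No difference among the 9 genes exceeded the SD of the control group, and every gene's groups overlapped.

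**Figure D4:**
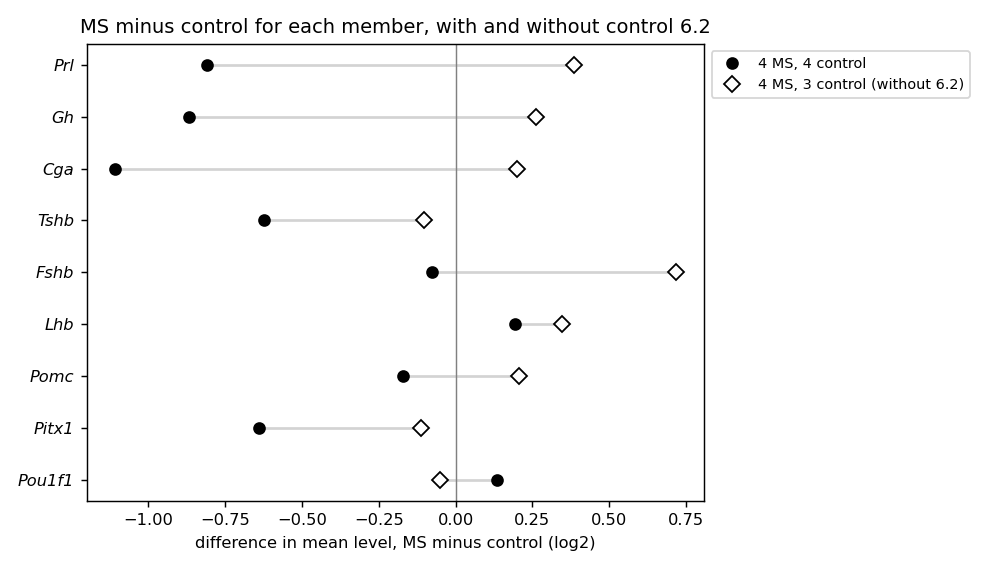
Difference in mean log2 level, MS minus control (x axis), for each of the 9 genes, over 4 MS and 4 control mice (filled circles) and over 4 MS and 3 control mice without control 6.2 (open diamonds). Prl, Gh and Cga move across 0, with Cga at -1.11 and 0.20.

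Over the whole array, limma with Benjamini-Hochberg adjustment called 0% of the 34072 probes tested between MS and control at 0.05 (lowest adjusted p = 0.9996), against 2.39% with an unadjusted p under 0.05 and 1.43% whose groups did not overlap. The median log2 fold change was 0.01. These shares are the background for 5 lists of genes that act with the pituitary hormones, none of which holds any of the 9 genes. None of their 39 tested genes passed, each with an adjusted p in limma of 0.9996 or more. Unless named as a level, each value given for these genes is the MS minus control log2 fold change, with its 95% confidence interval from limma in brackets.

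Receptors of the hormones were measured first. Of 12 genes for receptors and their accessory proteins, 7 were detected and tested. The receptors of thyrotropin, follitropin and lutropin (Tshr, Fshr, Lhcgr) and the melanocortin receptors Mc1r and Mc2r were detected on no array. The growth hormone receptor Ghr had levels of -1.03 to -0.83 in MS and -1.10 to -0.50 in control, and gave -0.12 (-0.41 to 0.17), and the prolactin receptor Prlr gave -0.19 (-0.65 to 0.26). Mrap2, an accessory protein that modulates melanocortin receptors, had levels of -0.03, 0.22, 0.15 and -0.15 in MS 5.3, 7.1, 7.2 and 7.6 and 0.26, 0.37, 0.50 and 0.23 in control 6.2, 8.2, 8.4 and 8.5. All its MS values lay below all its control values, by -0.29 on average (-0.54 to -0.05). It was the 1 of 7 tested genes of this list with groups apart. The nearest pair, MS 7.1 at 0.222 and control 8.5 at 0.228, lay closer than the spot SD of 0.056 at this level. With MS 5.3, MS 7.6, control 8.2 or control 8.4 left out, 0 of the 7 had an unadjusted p under 0.05 in limma. On the other side, the brain melanocortin receptors Mc3r and Mc4r gave 0.99 (-0.83 to 2.80) and 0.07 (-0.31 to 0.45). The Mc3r value came down to 0.05 without control 8.4, whose level was -5.61. The median of the list was -0.12.

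Signalling and target genes downstream of the Prl and Gh receptors gave 8 tested genes of 9, with Igfals, the liver carrier subunit for Igf1, not detected. The receptor-bound kinase Jak2 gave -0.06 (-0.34 to 0.23), the factor Stat5a -0.26 (-0.81 to 0.28, and -0.04 without control 8.4) and Stat5b -0.08 (-0.36 to 0.19). The feedback inhibitors Socs2 and Cish, both induced through Stat5, gave -0.01 (-0.20 to 0.18) and 0.10 (-0.15 to 0.36), and Igf1 gave 0.04 (-0.18 to 0.26). Their intervals all included 0, the median was -0.03, and 0 of the 8 had groups apart. Cish had its lowest level in control 6.2 (-0.26), the array highest in Gh and Prl. The Socs2 level there (0.29) lay within the range of the other arrays.

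Factors that release or inhibit these hormones in the living animal gave 8 tested genes of 9, since Gnrh1 was detected in 2 mice of each group. Somatostatin (Sst), which inhibits growth hormone release and also marks cortical interneurons, gave -0.11 (-0.37 to 0.16). Tyrosine hydroxylase (Th), the enzyme of dopamine synthesis and so of the brake on prolactin, gave -0.82 (-3.06 to 1.42) with its highest levels in MS 7.6 (2.42) and control 8.4 (3.92), and 0.06 without control 8.4. Th is also on the list of olfactory bulb markers, whose sum was highest on the same arrays, and the part of bulb tissue in it was not tested. Galanin (Gal) gave -0.26 (-0.75 to 0.23, and -0.04 without control 8.4), Kiss1 0.51 (-0.29 to 1.30, and 0.11 without control 8.4) and Crh 0.02 (-0.55 to 0.58). The median of the list was -0.18, with 0 of 8 apart.

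Other genes of the anterior pituitary were mostly undetected. Of 16, only 6 were tested, and among the others Hesx1, Lhx4, Tbx19, Six6, Pax7, and the receptors Ghrhr, Gnrhr and Ghsr were detected on no array, control 6.2 included. The thyrotropin-releasing hormone receptor Trhr had levels of -2.28, -2.22, -2.47 and -2.34 in MS 5.3, 7.1, 7.2 and 7.6, and of -2.21, -2.12, -1.95 and -1.94 in control 6.2, 8.2, 8.4 and 8.5. Its groups did not overlap, by 0.01 log2 units at the nearest pair, and it gave -0.28 (-0.49 to -0.06). The LIM factor Lhx3 gave -0.26 (-0.50 to -0.02), with overlapping groups. Its highest level was in control 6.2 (-4.21), which spot noise does not separate from control 8.5 (-4.24). The somatostatin receptor Sstr5 gave 0.01 (-0.27 to 0.29), the gonadotroph factor Nr5a1 0.07 (-0.17 to 0.32) and the glycoprotein beta subunit Gphb5 0.16 (-0.22 to 0.53). The median was -0.05.

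Genes that process and store prohormones, shared by endocrine cells and neurons, were detected on all arrays for all 10. Their log2 fold changes ran from 0.02 to 0.26 with a median of 0.11, all above 0, as were 54.9% of all probes tested, and 0 of the 10 had groups apart. The count above 0 was 8 of 10 under quantile normalisation, 6 of 9 in the authors' table, 9 of 10 with normexp background correction, and 9 or 10 of 10 as each array was left out, with Scg2 at -0.06 without control 6.2 and Pcsk2 at -0.01 without control 8.4. Carboxypeptidase E (Cpe), which trims the cut hormones, gave 0.13 (-0.11 to 0.36), the convertase inhibitor Pcsk1n 0.06 (-0.18 to 0.29), the granule protein Chgb 0.14 (-0.05 to 0.33) and the amidating enzyme Pam 0.26 (-0.16 to 0.68). The convertases Pcsk1, which cuts Pomc, and Pcsk2 gave 0.20 and 0.14. Control 6.2, the array highest in Pomc, was highest for none of the 10. Its Pcsk1 level was the lowest (-0.81), but spot noise does not separate it from control 8.4 (-0.78).

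**Figure D5:**
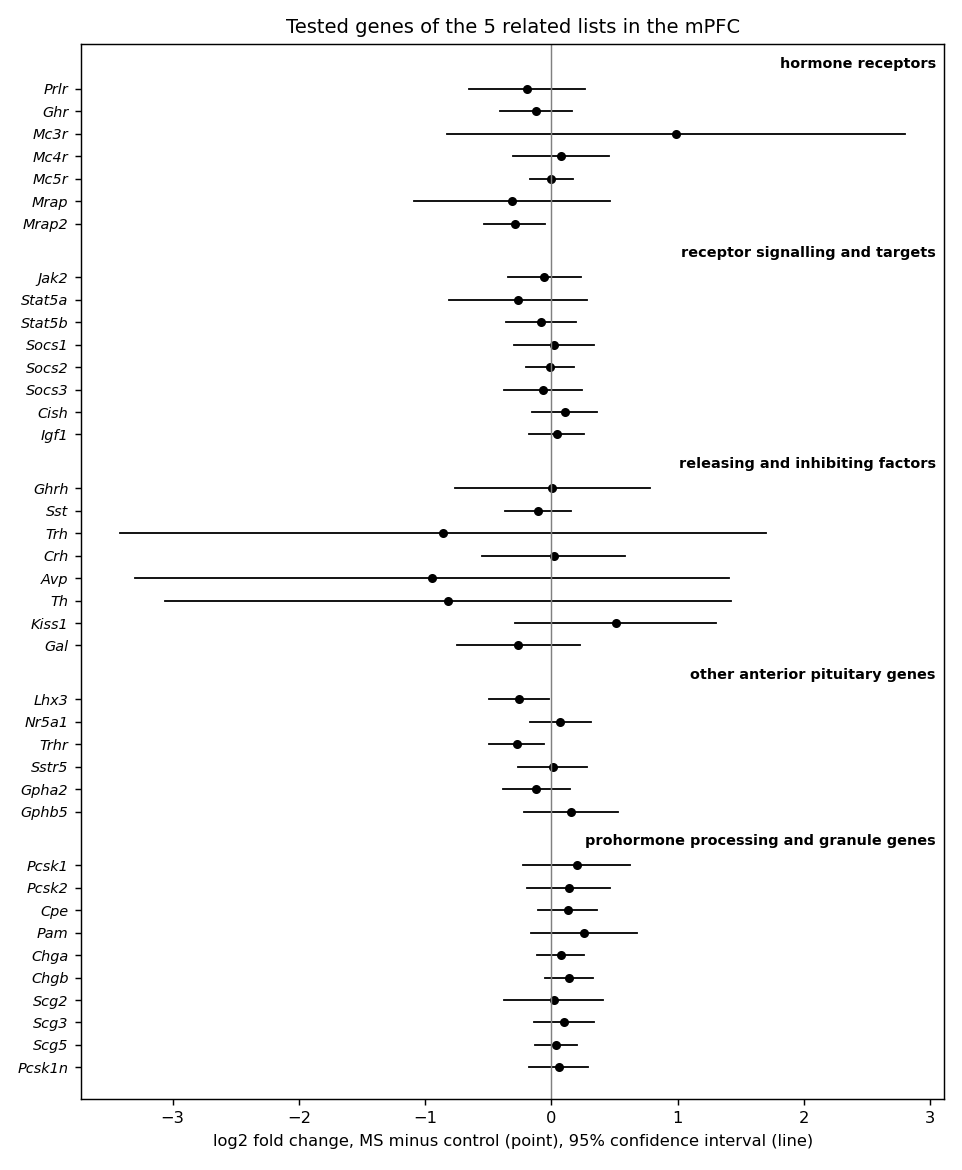
Log2 fold change, MS minus control (x axis), of the 39 tested genes of the 5 related lists, with points for limma estimates and lines for their 95% confidence intervals (4 mice per group). Intervals of Mrap2, Trhr and Lhx3 lie below 0 before adjustment, and Trh, Avp and Th have the widest.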

How the data were processed

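The authors extracted total RNA from the mPFC with TRIzol, labelled cRNA from 200 ng with Cy3 and scanned 1 slide of 8 arrays. Intensity values were deposited as scanner output of Agilent Feature Extraction 10.10.1.1, with spot and local background brightness and a background-subtracted processed signal per spot. The authors also deposited a log2 table of 34137 probes, made with limma per the labels. The normalisation behind it is not stated in those labels. Each column correlated at 0.9999 or more with the log2 of its own array's median spot signal, before background subtraction.

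From the intensity values, 3671 control spots were left out, the log2 of the processed signal was taken relative to each array's 75th percentile, and repeated spots were averaged without spots that the software marks as outliers. A probe was well above background under the software's flag (multiplier 13), and none was saturated. MS and control were compared with limma 3.58.1 in R 4.3.3 (two-sided, no covariate), over the 34072 probes that passed this flag in all 4 mice of either group, with Benjamini-Hochberg adjustment at 0.05 and the brightest tested probe per gene. The step was tested on simulated data. The p-values measure the spread between these 8 animals, taken as independent, with variances moderated over all probes. Most mice of each group share the unexplained number before the point, so their independence was not shown.

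The 9 genes, the lists and the tests were chosen with earlier results of these data known. Named in the text are all 9 genes at all probes. Of each list, the text names the 3 brightest tested genes, the 2 with the lowest unadjusted p on each side and any gene called, plus genes named for their role or for a value in an array of interest, chosen after their values were seen. Some members of the lists are counted but not reported here by name. For Prl and Gh the 8 named genes with the nearest profile are given. Names were updated through RefSeq accessions (27235 probes). Promoters are RefSeq sequence on GRCm38.p6. Alternatives were background correction with normexp (offset 50), quantile normalisation, the authors' table, other filters on dim probes, a less strict detection flag, the number before the point as a random block, and each array left out. Array number limits the precision.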

Additional observations from a re-analysis of the deposited data

Results flagged for a closer look

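A sample was picked out where it lay far from the other 3 of its group by Dixon's ratio. Of 98 groups examined, 12 had such a sample, and chance gives about 1 in 20. The 12 include 3 of hormone genes chosen on their values, so no excess over chance is read from the count. Those 3 were values of control 6.2, each the single detected value of its gene: Tshb at -5.94 (next control -7.90), Fshb at -4.76 (next -7.86) and Pitx1 at -6.01 (next -8.03). The other 3 controls were not well above background, so the distance to them has no measured size. These 3 genes were chosen for such values, and the ratio restates their detection in control 6.2.

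In the related lists, 4 of the values were from control 8.4: Mc3r was low at -5.61, Stat5a high at -2.47, Gal high at 0.48 and Sstr5 low at 2.67. MS 7.6 was high in its group for Ghrh (-2.83) and Th (2.42). MS 7.1 was low for Kiss1 (-0.72) and for Sstr5 (2.49), and control 8.2 was low for Gpha2 (-4.26).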

How the results depend on the processing

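No probe passed the Benjamini-Hochberg threshold in limma over the whole array or in any of the 5 lists, under any of the 14 alternatives run. The lowest adjusted p over all probes was 0.394, with the number before the point as a random block (estimated correlation -0.22), where 3827 probes had an unadjusted p under 0.05 against 815 without the block and 425 with normexp. No paired analysis was possible because the labels give no number that pairs MS with control animals.

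Of the hormone genes, MS minus control ran from -1.89 to 0.38 for Prl, -1.93 to 0.26 for Gh, -2.21 to 0.20 for Cga at its first probe, -0.54 to 0.21 for Pomc and 0.04 to 0.35 for Lhb as each array was left out. Leaving out control 8.5 gave the lowest values of Prl, Gh and Cga and leaving out control 6.2 the highest, and leaving out control 6.2 was the only one of these 8 that turned their direction. Normexp, quantile normalisation and the authors' table kept the direction of Prl and Gh (-0.81 to -0.72 and -0.84 to -0.71). Cga, Tshb, Fshb, Pitx1 and Pou1f1 are not in that table. The list median changed sign in 3 alternatives for receptor signalling (-0.06 to 0.03) and in 1 for the releasing factors (-0.28 to 0.06), and in none for the other 3. Each probe of the members has a single spot per array, and all but Lhb and Pomc were at background on at least 1 array.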
